A study of Lolium perenne with 10 samples.

Results

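In Lolium perenne, the perennial ryegrass of pastures and lawns, 150 genes were chosen whose transcripts lay lower than in untreated leaves under drought, under submergence and in both temperature treatments. They were selected on measured values of these same libraries. A gene qualified when its mean log2(CPM + 1) lay at least 1 below the control mean in each of the 4 treatments, and qualifying genes were ranked by the smallest of their 4 falls. CPM is a gene's count scaled to a common library size, corrected here for depth and composition. Of 46394 genes in the deposited count table, 21817 had at least 10 counts in both libraries of control, drought or either temperature group, 200 of these met the limit in all 4 treatments, and the first 150 by rank are described as members. They make up 0.688% of the genes that passed the count filter.

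All libraries came from leaves of wild-type seedlings raised under a 16 h photoperiod, with days at 22 °C and nights at 18 °C, and each was made from 30 seedlings. There were 2 libraries in each of 5 groups. Control seedlings were untreated, and drought seedlings went without water for 7 days from the age of 7 days. Temperature seedlings were treated for 12 h at an age of 14 days, either at 4 °C or at 42 °C. The sources used here do not state how long or how deep seedlings were submerged, nor the age of control and submerged seedlings. Age and treatment therefore cannot be told apart in comparisons with control or with submergence. Titles and treatment fields of the temperature libraries contradict each other. The groups are therefore called title-cold and title-heat, and neither is given a temperature. A protocol field names Arabidopsis and gives other times (6 h of cold, 2 weeks of drought, 5 days of recovery), so which times apply to these seedlings is uncertain. Nothing in the labels says that the 2 libraries of a group were separate cultures, and p-values then measure only the spread between these libraries, which may be technical.

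Plants under stress commonly lower the transcripts of growth, such as those for cell division, wall extension, protein synthesis and light harvesting, while they raise protective ones. In grass leaves new cells arise at the leaf base, so the mix of young and mature tissue also shapes what a leaf sample contains. Which of these processes the members serve is not known, because genes are assembled sequence clusters without names. None of the cluster IDs was found among 56406 genes of the Kyuss_2.0 reference table (0 matches). The IDs of ranks 1 and 2 are therefore printed as examples, and other members are given by rank. The leaf label could not be checked against marker genes for the same reason. In bulk leaf tissue, fewer cells of a type and less RNA per cell cannot be told apart.

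Total counts ran from 10847727 to 12605087 per library. Within each group the libraries differed beyond counting error (chi-square over its degrees of freedom, 7.71 to 22.0), so neither was taken for a second copy of the other. Genes kept by the filter held 94.9% and 95.3% of the counts of the submergence libraries and at least 99.5% of each other library.

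Together the members supplied 0.677% and 0.666% of all counts in control. The corresponding shares were 0.216% and 0.220% in title-cold, 0.201% and 0.211% under drought, 0.163% and 0.154% in title-heat, and 0.132% and 0.127% under submergence. Submergence libraries had the lowest shares, and both libraries of a group lay close together. That order rests on the most abundant member, at rank 61. Without it the shares were 0.130% and 0.125% under submergence and 0.128% and 0.124% in title-heat. The rule fixes that treatments lie below control, so this is a description. The shares are of total counts, so scaling factors enter them only through the choice of members. With no such factors, 95 of the 150 members still met the limit.

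The members were genes of moderate level. In control they had a median of 13.9 CPM, against 6.03 CPM over all genes kept, and ran from 1.65 to 1763 CPM. By control level, 21 members lay under 5 CPM, 34 from 5 to 10, 68 from 10 to 50, 12 from 50 to 100 and 15 at 100 CPM or more. A gene with little expression in control cannot fall by the required amount, so the rule itself favours this shift. The 5 members highest in control held 46.6% of the summed control CPM of all 150.

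What remained in the treatments was low. The median member stood at 3.22 CPM under drought (22.9% of its control level), 3.19 in title-cold (21.2%), 2.80 in title-heat (18.6%) and 1.98 under submergence (14.1%). The median over all kept genes lay between 6.03 and 7.01 CPM in every group. Genes with 0 counts in both libraries of a group numbered 9 of the 150 for drought, 8 for title-cold, 7 for title-heat and 6 in the submerged leaves, and a count of 0 allows up to 3 counts, which is 0.191 to 0.362 CPM depending on the library. Fewer than 10 counts in both libraries were found for 30, 25, 39 and 37 members in these groups.

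The median fall on the log2(CPM + 1) scale was −2.14 ± 0.02 for submergence, −1.91 ± 0.01 for title-heat, −1.83 ± 0.05 for title-cold and −1.77 ± 0.22 for drought (SD over the 2 treatment libraries, each against the control mean). Over all kept genes the median difference was 0.03, 0.00, 0.08 and −0.04 in the same order. These are the values the rule used, and adding 1 to the CPM understates the fall of weak genes. The SDs leave out the spread of control and the choice of scaling. With total counts the medians were −1.95 for title-heat, −1.75 for submergence, −1.71 for drought and −1.42 for title-cold. Without drought replicate 1 the drought median was −2.03. The order of treatments thus depended on scaling and on single libraries. The fall was deepest in submergence for 50 members, in drought for 38, in title-cold for 32 and in title-heat for 30. A fall of at least 2 was reached by 83 members in submergence, 69 in title-heat, 60 in title-cold and 58 in drought, and 14 members reached it in all 4. The difference between a member's deepest and shallowest fall had a median of 1.15 and ran from 0.04 to 5.21. The smallest difference was at rank 20, whose only treatment read was 1 count in submergence replicate 2. Its near-equal falls thus come from counts of 0 and the added 1, and do not show an equal level.

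**Figure D1:**
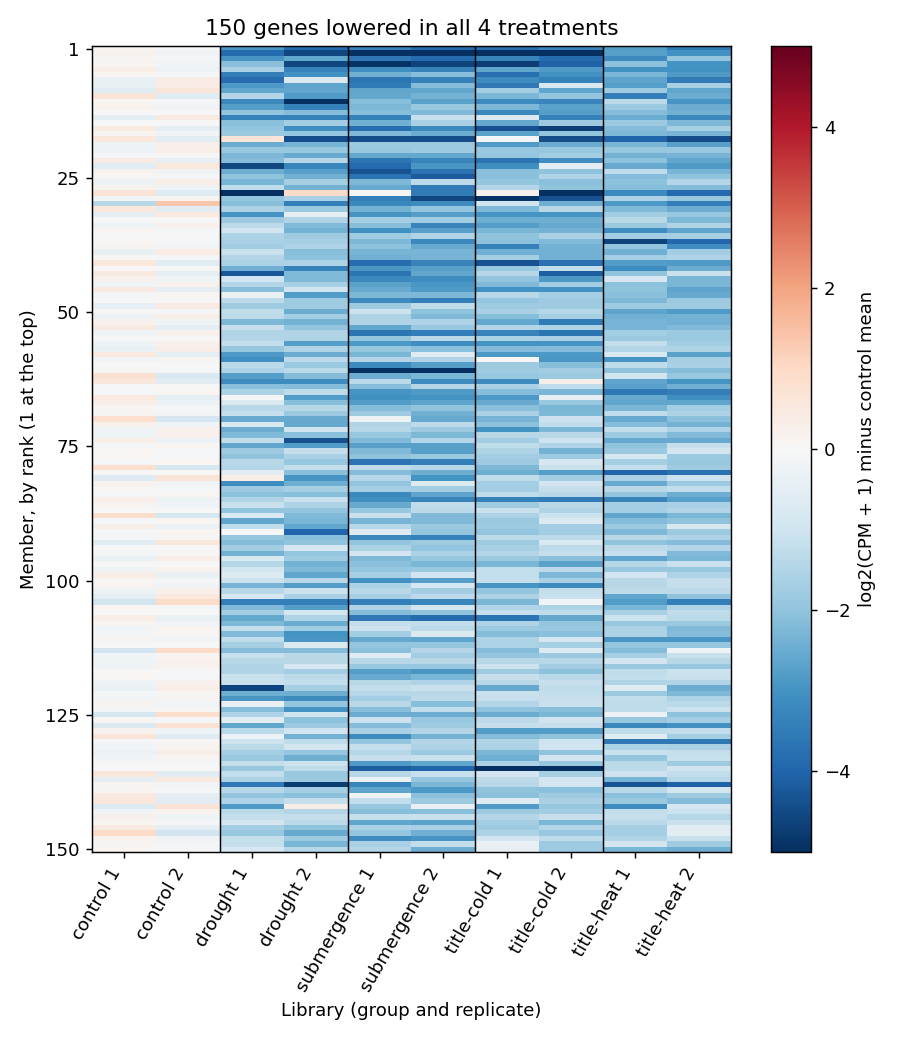
Level of the 150 members (rows, by rank) in each of the 10 libraries (columns), as log2(CPM + 1) minus the control mean on a linear colour scale from −5 to 5. Treatment columns are blue nearly throughout, which the choice of members fixes, and drought shows the most disagreement between its libraries, with 43 members more than 1 apart.

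The limit of the rule fell within a continuous range of values. The smallest fall of the last member was −1.111 and that of the next gene in rank −1.105. The gene nearest to the limit of −1 on the inside stood at −1.001 and the nearest on the outside at −0.998. Across all kept genes, 719 met the limit in 3 treatments, 2083 in 2 and 3793 in 1. The last member had 4.82 and 4.11 CPM in control and up to 3.15 CPM in a treatment library. The gene just behind it was far more abundant, with 2072 and 1434 CPM in control, 787 and 814 under drought and 88 and 158 under submergence.

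Most members separated from control in every library. In 131 of 150 all 8 treatment libraries lay below both control libraries, a pattern seen in 6.97% of all kept genes. Taken by treatment, both libraries lay below both controls for 147 members in title-heat (33.3% of kept genes), 145 under submergence (34.1%), 142 in title-cold (31.2%) and 141 under drought (34.8%). A gene was called where edgeR's quasi-likelihood test gave p below 0.05 after Benjamini-Hochberg adjustment over all 21817 genes. By this test 122 members were called lower than control under submergence (background 19.6%), 110 in title-cold (16.5%), 104 in title-heat (11.7%) and 103 under drought (15.9%). In 77 members all 4 treatments were called and in 18 none was. The rule used these contrasts and the 4 share their control libraries, so nothing further is read from the counts. Each of the 4 counts was lower whichever library of its comparison was left out, as low as 73 in title-cold without its replicate 1 and to 63 or 65 in title-heat without its replicate 1 or 2.

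The member at rank 1, c150356.graph_c1, had 14.2 and 12.5 CPM in control. It had 0.936 and 0 CPM under drought, 0.413 and 0 under submergence, 0.0734 and 0.469 in title-cold, and 1.1 and 0.242 in title-heat. Both controls lay more than 10 CPM above every treatment library, and no treatment library held more than 10 counts of it. None of the 6 differences between treatments was called for it, the smallest adjusted p being 0.369 (edgeR).

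The member at rank 2, c153006.graph_c0, was more abundant and graded among treatments. Its level was 98.6 and 78.3 CPM in control, 12.6 and 10 in title-heat, 5.10 and 2.82 under drought, 1.03 and 1.21 under submergence, and 1.17 and 0.201 in title-cold. Groups did not overlap except submergence with title-cold, which also were not called different (log2 difference 0.73, SE 0.61, adjusted p = 0.377, edgeR). Title-heat exceeded title-cold by 4.05 (SE 0.52, adjusted p = 0.000289, edgeR) and submergence lay below title-heat by −3.32 (SE 0.48, adjusted p = 0.000495). Drought was called above title-cold at 2.54 (SE 0.56, adjusted p = 0.00484) and below title-heat at −1.52 (SE 0.44, adjusted p = 0.0298), and the latter call was lost with 3 of the 4 libraries left out in turn. The former had an adjusted p of 0.0581 when only the libraries of both groups were fitted.

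At ranks 3 and 4 drought and title-heat again had higher means than submergence and title-cold. The member at rank 3 had 18.0 and 16.6 CPM in control, 0.986 and 3.62 in title-heat, 1.35 and 2.02 under drought, 0.807 and 0.268 in title-cold, and 0.551 and 0.255 under submergence. At rank 4 the values were 38.2 and 31.5 in control, 7.67 and 3.5 in title-heat, 7.38 and 0.504 under drought, 0.367 and 1.14 in title-cold, and 0.207 and 0.446 under submergence. In both genes submergence was called below drought (adjusted p = 0.0394 and 0.0400, edgeR), and these calls were lost with most libraries left out, with total counts and with a replicate block. Drought replicate 2 of rank 4 sat with the low groups and replicate 1 with title-heat.

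Rank 5 came from the same sequence cluster as rank 1. It had 11.3 and 7.15 CPM in control, 2.29 and 0 under drought, 0.660 and 0.402 in title-cold, 0.219 and 0.242 in title-heat, and 0.207 and 0 under submergence. Like rank 1, it was at 0 in replicate 2 of drought and submergence and was called in no pair of treatments. In all, 6 members fell into 3 such pairs from one cluster (ranks 1 and 5, 12 and 109, 84 and 134). Reads could have been divided between near-identical sequences in such pairs, and the counts of members include both of each pair.

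Ranks 6 to 10 showed other orders. Rank 6 was higher under submergence, at 3.51 and 4.39 CPM, than under drought, at 1.14 and 1.92, or in title-cold, at 0.734 and 1.88, while control had 24.1 and 21.4 and title-heat 3.83 and 2.29. It was called higher in submergence than in drought (adjusted p = 0.0350) and title-cold (adjusted p = 0.0207, edgeR), though not with each library left out, nor when only the libraries compared were fitted. Rank 7 had 9.64 and 17.1 CPM in control, 0 and 7.46 under drought, and at most 1.21 in the other treatment libraries. Rank 8 had 8.18 and 14.7 CPM in control, 0 and 5.97 in title-cold and at most 2.78 elsewhere. In both, a single library held nearly all that remained in its group.

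Rank 9 had 3.03 and 8.23 CPM in control and 0 counts in both drought and both submergence libraries. Each temperature group had 1 library with reads, at 0.807 CPM in title-cold and 0.767 in title-heat. Rank 10 kept more of its level, with 56.5 and 24.5 CPM in control, 13 and 4.44 under drought, 6.75 and 8.85 in title-cold, 5.58 and 6.43 under submergence, and 2.63 and 5.80 in title-heat. None of ranks 7 to 10 was called in a pair of treatments.

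**Figure D2:**
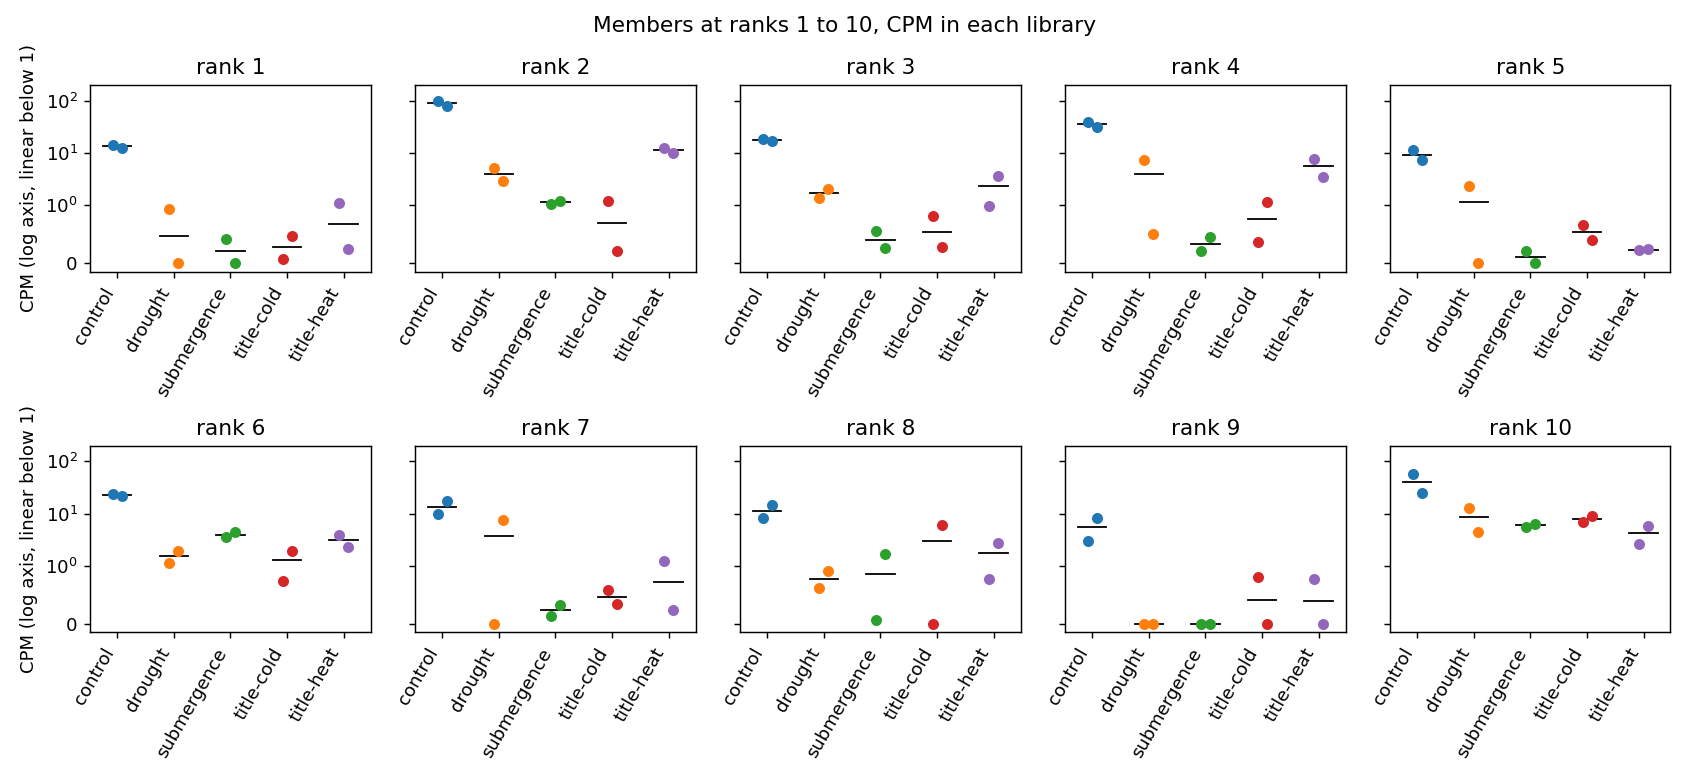
CPM of the members at ranks 1 to 10 in each library (points, 2 per group) with the group mean (line), on an axis that is logarithmic above 1 CPM and linear below. Control points lie highest in all 10 panels, and rank 2 runs from a mean of 88.5 CPM in control to 0.688 CPM in title-cold.

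The 5 members highest in control were ranks 61, 135, 22, 54 and 53. Rank 61, the most abundant, had 1846 and 1680 CPM in control, 606 and 690 under drought, 515 and 534 in title-cold, 440 and 394 in title-heat, and 14.3 and 18.9 under submergence. Its submergence level was 0.941% of control and lay far below every other library. Submergence was called lower than drought by −5.29 on the log2 scale (SE 0.20, adjusted p = 2.95e-07, edgeR), than title-cold by −4.98 (SE 0.20, adjusted p = 3.82e-07) and than title-heat by −4.65 (SE 0.20, adjusted p = 2.37e-07). These 3 calls held in every alternative fit, and with each library of the groups compared left out in turn.

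Rank 135 was low in both submergence and title-cold. It had 729 and 733 CPM in control, 296 and 369 in title-heat, 197 and 301 under drought, 41.3 and 44.3 under submergence, and 20.6 and 11.6 in title-cold. Title-heat exceeded title-cold by 4.37 (SE 0.31, adjusted p = 4.49e-06, edgeR) and drought exceeded it by 3.95 (SE 0.30, adjusted p = 7.54e-06). Submergence was itself called above title-cold by 1.41 (SE 0.28, adjusted p = 0.00340), while drought and title-heat were not called apart (−0.42, SE 0.27, adjusted p = 0.267).

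Ranks 22 and 54 followed a like order at about the same level. Rank 22 had 535 and 307 CPM in control, 88.8 and 149 under drought, 98.1 and 65.3 in title-heat, 31.1 and 39.1 under submergence, and 30.7 and 45.7 in title-cold. Rank 54 had 304 and 412 in control, 124 in both drought libraries, 104 and 96.0 in title-heat, 27.0 and 31.1 under submergence, and 34.3 and 27.6 in title-cold. For rank 54 the fitted difference of drought over title-cold was 2.00 (SE 0.19, adjusted p = 2.06e-05, edgeR). Rank 53 had 461 and 247 CPM in control and 55.4 to 153 CPM in the treatment libraries, with no pair of treatments called.

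Differences between treatments were then tested across all 21817 genes. The rule compared each treatment with control and not treatments with each other, though it used the same libraries and held each member below a limit in both. Members were also weakly expressed over all libraries, with a median of 5.10 CPM against 7.58 for kept genes. Whether this lowered the number of members called was not tested. Of the 75 members with the higher mean level 48 were called in at least 1 pair of treatments, and of the other 75 it was 33. With no filter on low counts more members were called in each of the 6 pairs, 50 to 86 in place of 16 to 52. Shares of all genes were not computed for that fit.

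Submergence held lower levels than drought in more members than the reverse. Of 150 members, 40 (26.7%) were called lower in submergence and 12 (8%) higher, against 25.7% and 22.9% of all genes tested. The share called lower thus lay near the background, and the share called higher lay under it. The median difference over members was −0.26 on the log2(CPM + 1) scale with a spread of 0.17 between libraries, and 0.05 over all kept genes, and single members ran from −5.21 to 1.95. The balance moved with scaling: with total counts in place of composition factors 28 members were called lower and 20 higher, and the median became 0.03.

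Against title-cold, 26 members (17.3%) were called lower in submergence and 9 (6.00%) higher, beside 19.4% and 20% of all genes. Against title-heat the members called lower numbered 32 (21.3%) and those called higher 10 (6.67%), beside 24.7% and 22.6%. Median differences over members were −0.23 (spread 0.06) and −0.13 (spread 0.12), and over kept genes −0.05 and 0.07. With total counts the second comparison turned to 22 lower and 28 higher members and a median of 0.26.

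Drought and title-heat were called apart in the fewest members. Drought was called higher in 11 (7.33%) and lower in 5 (3.33%), beside 15.3% and 14.9% of all genes, and the median difference was 0.01 with a spread of 0.16. That 134 members were not called does not show that they were alike in both groups. The 16 calls became 8 and 7 without title-heat replicate 1 and 2. Without drought replicate 1 the balance turned, with 8 members higher and 14 lower in drought and a median of −0.14.

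Title-cold differed from drought and from title-heat in both directions. Drought was called higher than title-cold in 23 members (15.3%) and lower in 15 (10%), beside 27.8% and 25.8% of all genes, and title-heat was called higher than title-cold in 24 (16.0%) and lower in 14 (9.33%), beside 25.2% and 23.6%. The medians were 0.13 (spread 0.14) and 0.01 (spread 0.10). Neither balance was stable, since total counts gave 13 higher and 27 lower members for drought and 10 higher and 42 lower for title-heat, while for drought upper-quartile factors gave 17 and 21 and leaving out drought replicate 1 gave 18 and 21. Calls between drought and title-cold fell from 38 to 21 without title-cold replicate 2, and those between title-heat and title-cold from 38 to 20 without title-heat replicate 1.

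**Figure D3:**
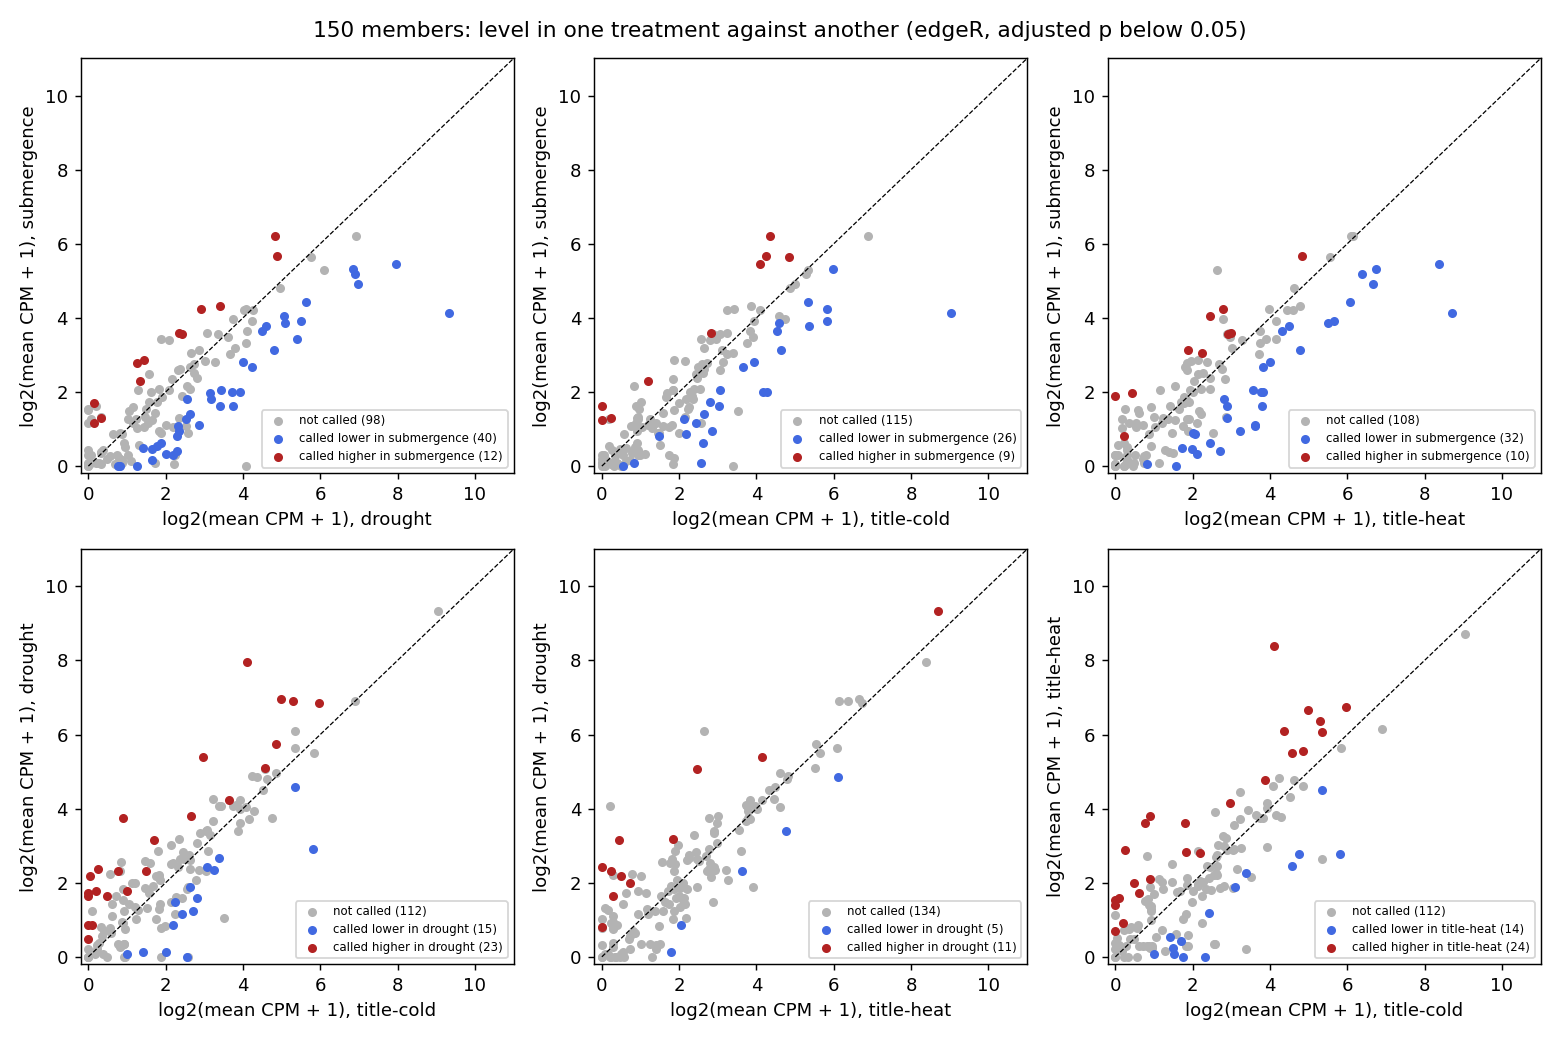
Mean level of the 150 members in one treatment against another, as log2(mean CPM + 1) on both axes, for the 6 pairs of treatments, with members called by edgeR coloured and the line of equality dashed. In the 3 panels with submergence on the vertical axis (against drought, title-cold and title-heat) most coloured points lie under the line. Called lower were 40, 26 and 32 members (26.7%, 17.3% and 21.3%), beside 25.7%, 19.4% and 24.7% of all genes tested. Called higher were 12, 9 and 10 (8%, 6.00% and 6.67%), beside 22.9%, 20% and 22.6%. With total counts 28 were lower and 20 higher against drought, and 22 and 28 against title-heat.

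**Figure D4:**
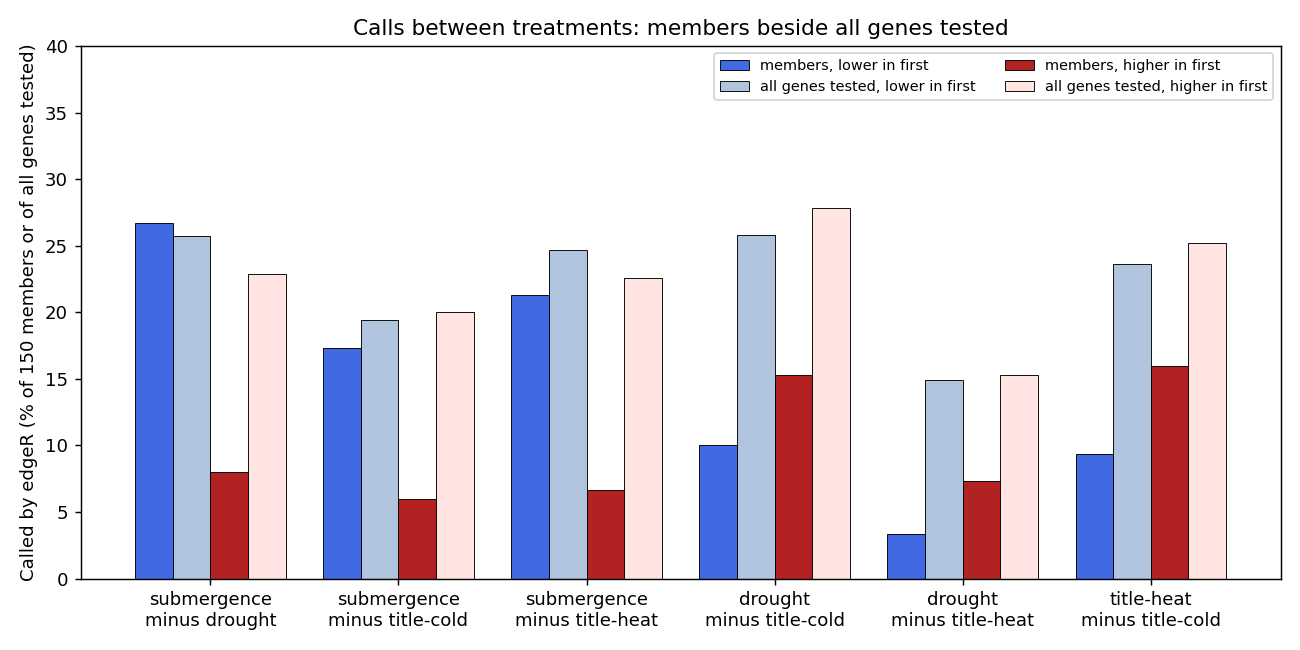
Share of the 150 members called lower or higher in the first-named treatment (dark bars, percent) beside the share of all 21817 genes tested (pale bars) for the 6 pairs of treatments. In 11 of the 12 directions the members' share lies under that of all genes, the exception being submergence lower than drought, at 26.7% and 25.7%.

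Read together, 69 members (46.0%) were called in no pair of treatments, against 17.8% of all genes tested. With no filter on low counts 25 members were called in no pair, and no share of all genes was computed for that fit. The 69 had a median of 3.73 CPM over all libraries, and the other 81 a median of 6.37 CPM, so the part that low level plays in this share was not tested. Their deepest and shallowest falls were a median of 0.74 apart, and 1.42 in the 81 members called at least once. One member, at rank 65, was called in all 6 pairs. It had 11.4 and 12.9 CPM in control, 3.43 and 4.44 under drought, 1.91 and 1.68 in title-cold, 0.689 and 0.828 under submergence and 0.110 and 0.242 in title-heat, with no overlap between any groups. Its title-heat libraries held 1 and 2 counts. Rank 65 was singled out after its values were seen, and whether its calls hold with fewer libraries or other settings was not tested.

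In all, 16 members (10.7%) were called lower in submergence than in each other treatment, against 7.86% of all genes. The 16 kept 0.941% to 21.9% of their control level in submergence, with a median of 11.8%, and medians of 33.7% in title-heat, 33.3% under drought and 29.1% in title-cold. They include ranks 84 and 134, which come from one cluster. Members lower than in each other treatment numbered 4 for title-cold (8.99% of all genes), 1 for drought (4.73%) and 4 for title-heat (4.18%). Members higher than in each other treatment numbered 1 for submergence (7.36%), 3 for title-cold (6.30%), 4 for drought (6.71%) and 1 for title-heat (6.05%).

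Lower levels in both submergence and title-cold than in both drought and title-heat were called for 8 members (5.33%), among them ranks 2, 22, 54 and 135, against 10% of all genes. Some of the calls that place ranks 2 and 22 there were lost with a library left out or in other settings, while those for ranks 54 and 135 held. Ranks 139 and 145 belong both to these 8 and to the 16 lowest in submergence. Median levels over all 8 were 6.99% of control in submergence, 6.24% in title-cold, 31.0% under drought and 29.2% in title-heat. The opposite arrangement was found in 1 member (4.91% of all genes). Submergence and title-heat lay below drought and title-cold in 1 member (1.05%), with the reverse in 1 (1.32%), and submergence and drought lay below both temperature groups in 1 (1.88%), with the reverse in 0 (2.08%). These arrangements were defined after the values were seen. The count of 8 was 3 with total counts, 5 without submergence replicate 2 and 13 with DESeq2, and 17 with no filter on low counts.

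Among members called between treatments, those with the largest fitted differences were weakly expressed, and most had 0 counts in the lower group. Rank 130 had 0 counts in both title-heat libraries, beside 10.3 and 11.5 CPM in control, 4.78 and 3.93 under drought, 2.14 and 3.31 under submergence, and 3.23 and 4.83 in title-cold. Relative to a floor of 3 counts per library, its mean was at least 12.6-fold higher under drought (adjusted p = 0.000186, edgeR). The mean was at least 11.7-fold higher in title-cold (adjusted p = 8.19e-05) and at least 7.88-fold higher under submergence (adjusted p = 0.000129). All 3 calls held with each library of the groups compared left out in turn. Rank 128 had 0 counts in both title-cold libraries, 7.06 and 5.00 CPM in control and 1.24 to 2.52 CPM in the other treatments, and was at least 9.01-fold higher in title-heat than there (adjusted p = 0.000243, edgeR).

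Rank 122 was lowest under drought, at 0.208 and 0 CPM. Control had 7.17 and 8.91 CPM, submergence 1.79 and 2.67, title-cold 3.01 and 3.02, and title-heat 2.85 and 2.05. Submergence lay above drought by 4.31 on the log2 scale (SE 0.76, adjusted p = 0.00120, edgeR) and drought below title-heat by −4.44 (SE 0.77, adjusted p = 0.00231). The drought group held 2 counts in all, so these sizes are imprecise.

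The calls at ranks 125, 104, 58 and 32 were each lost with 3 of the 4 libraries left out in turn. Rank 125 had 2.02 and 9.40 CPM in control, 0.936 and 1.82 under drought, 0 counts in both submergence libraries, 0 and 0.134 CPM in title-cold, and 3.62 and 0.362 in title-heat. It was called lower in submergence than in drought (adjusted p = 0.0224, edgeR) and than in title-heat (adjusted p = 0.0152). The drought mean was 6.92-fold and the title-heat mean 10-fold the submergence floor of 3 counts. That title-heat mean rested mostly on replicate 1. Rank 104 had 1.17 and 8.65 CPM in title-cold, 0 counts in both drought libraries and 0 and 0.127 CPM under submergence, beside 4.60 and 19.5 in control and 0.548 and 0 in title-heat. It was called lower than in title-cold under drought (adjusted p = 0.0191, edgeR) and under submergence (adjusted p = 0.0266). The title-cold mean was 16.0-fold the drought floor of 3 counts and rested mostly on replicate 2.

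Rank 58 had 0.482 and 3.63 CPM under submergence and 0 counts in both title-cold libraries. It was called higher under submergence than in title-cold (adjusted p = 0.0430, edgeR), a call also lost with a replicate block (adjusted p = 0.0702). The submergence mean was 9.76-fold the title-cold floor of 3 counts and rested mostly on replicate 2. Control had 9.19 and 4.11 CPM, drought 0 and 0.303, and title-heat 3.18 and 0.121. Rank 32 had reads under drought in replicate 2 alone, at 4.64 CPM, and 0 counts in both title-cold libraries. It was called higher under drought than in title-cold (adjusted p = 0.0331, edgeR), with a drought mean 11-fold the title-cold floor of 3 counts. Without drought replicate 2 the difference was 0.00. Its control levels were 4.48 and 9.70 CPM, with 0 and 0.127 under submergence and 1.31 and 1.09 in title-heat.

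Agreement between replicates varied by group. The median gap between both libraries of a group over members was 0.48 on the log2(CPM + 1) scale in drought, 0.37 in title-cold, 0.36 in title-heat, 0.34 in control and 0.30 in submergence, against 0.22 to 0.27 over all kept genes. Gaps above 1 were found for 43 members in drought, 24 in control, 23 in title-cold, 19 in submergence and 16 in title-heat. Drought replicate 1 was the higher one for 91 members and replicate 2 for 50, with a median gap of 0.19 toward replicate 1, while over all kept genes that median was 0.00. Drought values of single members are the least certain for this reason.

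Because the rule averages on a log scale, a few genes qualified with 1 high library. The member at rank 28 had 107 and 43.5 CPM in control but 0 and 136 under drought, 78.7 and 0 in title-cold, 70.8 and 5.16 under submergence, and 6.68 and 3.74 in title-heat. Rank 18 had 30.2 and 13.8 CPM in control, 31.6 and 0 under drought, 19.0 and 0 in title-cold, 0 counts in both submergence libraries, and 0.329 and 0 CPM in title-heat. Both had a treatment library above their higher control library, and neither was called in a pair of treatments. They were singled out after their values were seen, and they belong to the 19 members in which some treatment library reached the lower control.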

How the data were processed

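The authors deposited whole-number read counts per assembled cluster, with no normalization. The submitters' processing notes list RSEM and DESeq 1.10.1 without a role, and the sources used here state neither assembly nor aligner. If RSEM made the counts, reads shared by similar sequences were split between them. The table's name mentions bermudagrass and cold, and its columns match this series' descriptions. Bermudagrass is also named in the protocols, while the organism field and the titles name perennial ryegrass. The species was not checked.

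Members and lists were chosen with earlier results of these data known. Genes with at least 10 counts in both libraries of control, drought, title-cold or title-heat were kept, a filter that passes over genes read under submergence alone. TMM factors (0.753 to 1.40) gave the CPM values, with a pseudocount of 1 for d. Tests used edgeR 4.0.16 (R 4.3.3), with a robust quasi-likelihood fit to the counts of all 10 libraries (5 residual degrees of freedom, common dispersion 0.0741), with Benjamini-Hochberg adjustment over all kept genes. SE is the log2 difference over the root of the quasi-F statistic. The spread of a median combines the SDs over the libraries of both groups. Floors of 3 counts cover counting error only. Printed by ID were ranks 1 and 2. By rank came ranks 3 to 10, the last member, the genes beside the limits, the 5 highest in control and, in each pair of treatments, the called member with the largest fitted difference in each direction. Alternatives were other scalings, filters and pseudocounts, DESeq2 1.42.0, fewer libraries and a replicate block. For a comparison of groups, only libraries of those groups were left out, 1 at a time. Outside the replicate block, libraries were not treated as paired by replicate number.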

Additional observations from a re-analysis of the deposited data

Results flagged for a closer look

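The counts of members called apart by the edgeR test are gathered here for all 6 pairs of treatments. No threshold was set on these counts, so their listing is not itself a result. Members called apart numbered 52 for submergence and drought, 35 for submergence and title-cold, 42 for submergence and title-heat, 38 for drought and title-cold, 16 for drought and title-heat, and 38 for title-heat and title-cold. The shares of all genes called in the same pairs were higher, at 48.5%, 39.4%, 47.3%, 53.7%, 30.1% and 48.8%. Groups of 2 libraries were too small for a check of single outlying samples.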

How the results depend on the processing

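Membership depended most on scaling, the pseudocount and the control libraries. The 200 genes at the limit became 118 with total counts and 77 with a pseudocount of 5, which returned 95 and 67 of the 150 members. With a library left out the genes numbered 184 to 402 and the members found again in the first 150 numbered 73 to 141, both extremes of membership coming without a control or a submergence library; without control replicate 1 or 2, 384 or 402 genes passed and 79 or 73 members were found again. Relative to TMM, total counts moved the median of all genes by 0.55 for submergence, 0.48 for title-cold and −0.14 for title-heat against control, and upper-quartile factors moved it by −0.19 for drought, −0.13 for submergence and −0.16 for title-heat.

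Medians over members moved with total counts to 0.0270 for submergence minus drought and 0.26 for submergence minus title-heat, which reversed them, and to −0.21 for drought minus title-cold and −0.45 for title-heat minus title-cold. Submergence minus title-cold became −0.29 with upper-quartile factors, −0.30 with a pseudocount of 0.5 and −0.0824 with a pseudocount of 5. With a library left out these medians ran from −0.39 to −0.17 for submergence minus drought, −0.21 to −0.0880 for submergence minus title-cold, −0.21 to −0.04 for submergence minus title-heat, 0.00 to 0.17 for drought minus title-cold, −0.14 to 0.09 for drought minus title-heat and −0.05 to 0.07 for title-heat minus title-cold.

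With no filter the calls between treatments rose to 86, 64, 73, 60, 50 and 69 (submergence against drought, title-cold and title-heat, drought against title-cold and title-heat, title-heat against title-cold), 25 members were called in no pair and 17 were lower in both submergence and title-cold; the cause was not tested. Shares of all genes were not computed for that fit, nor for the other alternatives. Fitting only the libraries compared gave 34 calls for submergence and drought and 20 for drought and title-cold. With a library left out calls ran from 35 to 51, 26 to 29, 29 to 32, 21 to 39, 7 to 22 and 20 to 29 in the same order, and calls against control from 74 to 98 for drought, 98 to 103 for submergence, 73 to 82 for title-cold and 63 to 73 for title-heat. Members called in no pair then numbered 61 to 79, those lowest in submergence 12 to 15, and those lower in both submergence and title-cold 5 to 10, which total counts gave as 3 and DESeq2 as 13. These last 3 counts were added after seeing the data. Rank 32 in drought minus title-cold ran from 0 without drought replicate 2, counted as a reversal, to 8.74 without drought replicate 1.

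Same-numbered libraries did not deviate together (r from −0.02 to 0.05 over 10 pairs of groups, across genes). Such correlations cannot exclude a pairing that moves few genes. With the replicate block the calls were 50, 34, 43, 37, 17 and 35. Of 47 calls for members described singly, 26 held with each library left out. Depth limits the members most in treatments, where 25 to 39 of them had under 10 counts in both libraries.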
